A study of Mus musculus with 43 samples.

Results

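The genes of the cytosolic ribosomal proteins were followed in RNA sequencing of 4 laser-captured hypothalamic nuclei. Members were all genes of the deposited table whose symbol began with Rpl or Rps and went on with a number, an a, or p0, p1 or p2. S6 kinase genes (Rps6k) and genes with a pseudogene symbol (-ps) were left out. This rule gave 64 of 10127 genes: 38 proteins of the large subunit, 18 of the small subunit, 5 paralogs (Rpl22l1, Rps27l, Rpl36al, Rpl7l1 and Rps4l), 2 retrotransposed copies (Rpl37rt and Rps27rt), and Rps19bp1. The annotation gives Rpl37rt and Rps4l as transcribed processed pseudogenes, and the other members as protein-coding. Rps19bp1 encodes a binding partner of RPS19 and is not itself a ribosomal protein, although its symbol fits the rule. The annotation held 93 symbols that fit, and the remaining 29, among them both acidic stalk proteins Rplp1 and Rplp2, were not in the table.

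All mice in the groups used here were adult males on a C57/BL6 background with a paternal deletion of the Snord116 cluster of small nucleolar RNA genes (the strain B6(Cg)-Snord116tm1.1Uta/J), a mouse model of part of the Prader-Willi region. No wild-type library was used here, so the deletion was shared by every group. Mice were fed ad libitum or had been fasted for 24 hours, and the arcuate nucleus (ARC), dorsomedial hypothalamus (DMH), paraventricular nucleus (PVN) and ventromedial hypothalamus (VMH) were cut from frozen sections by laser. The 41 libraries came from 12 mice, with 4 fasted and 5 fed libraries in ARC, 5 and 6 in DMH, 5 and 5 in PVN, and 6 and 5 in VMH. The comparisons asked where in the hypothalamus these genes were higher or lower and whether fasting changed them.

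A cytosolic ribosome is built from ribosomal RNA and a fixed set of proteins, most of them encoded by a single active gene, in a small subunit that decodes mRNA and a large subunit that forms peptide bonds. The mRNAs of these proteins belong to the 5′ TOP class: they start with a cytosine followed by a run of pyrimidines, and their translation is switched by nutrients through mTOR and the RNA-binding protein LARP1. Control of this class acts largely on translation, which RNA levels do not measure. In hypothalamic neurons mTOR signalling is known as a sensor of nutrients and leptin.

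Depth, the total of reads that the CPM scale implies, was 1.94 to 8.23 M (mega) reads a library, with a median of 4.10 M. It was read from low values and is not the number of reads sequenced. In library names such as VMH-111 the nucleus comes first and the mouse second. Values are CPM, a library's reads of a gene scaled to a common total, so each is a share of the library's reads and not an amount per cell. In such bulk samples fewer cells of a type and less RNA per cell cannot be told apart. Capture and library preparation were done in 3 batches of 10, 15 and 16 libraries with 4 mice each. The labels of the nuclei were checked against marker genes. Npy had a median of 326 CPM in ARC, whereas its medians in the other nuclei were at most 3.00 CPM. The medians of Npvf in DMH, Avp in PVN and Fezf1 in VMH were 69.7, 692 and 230 CPM. Crabp1 in ARC and Crh in PVN also had their highest medians there, at 170 and 28.1 CPM. Fam19a4, the other VMH marker in the table, went the other way, at 0 CPM in VMH and 3.52 CPM in DMH by medians.

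Sequences around the annotated transcription start are shown because they carry the feature that defines this mRNA class, and because they tell an old gene from its retrotransposed copy. RefSeq (GRCm38.p6) gave a start for 50 of the 64 members. Each line runs from 10 bases before that start to 20 bases after it, 5′ to 3′ on the gene's strand. A pyrimidine tract was defined as a C followed by at least 4 more C or T bases, and capitals mark the longest one that begins within 10 bases of the start. Shorter ones may stand in lower case. Coordinates are GRCm38.
Rps27, small subunit, chr3:90213629-90213658, minus strand: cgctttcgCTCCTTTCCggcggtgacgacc
Rps27rt, copy of Rps27, chr9:114982720-114982749, minus strand: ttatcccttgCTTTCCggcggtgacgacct
Rps10, small subunit, chr17:27635225-27635254, minus strand: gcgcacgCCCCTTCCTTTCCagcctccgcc
Rps21, small subunit, one of its starts, chr2:180257369-180257398, plus strand: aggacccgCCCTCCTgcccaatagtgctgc
Rpl28, large subunit, chr7:4792955-4792984, plus strand: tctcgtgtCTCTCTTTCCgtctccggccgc
Rpl35, large subunit, chr2:39005112-39005141, minus strand: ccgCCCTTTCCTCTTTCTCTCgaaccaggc
Rpl38, large subunit, chr11:114668570-114668599, plus strand: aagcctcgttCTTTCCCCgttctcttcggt
Rpl4, large subunit, no tract at this start, chr9:64173377-64173406, plus strand: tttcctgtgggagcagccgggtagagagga
A tract lay within 10 bases of the start in 27 of 50 members (54%), and in 34.4% of all 27025 genes with a start in the same table. Where a gene had several starts it was counted if any had a tract, in members and in all genes alike. Rpl10a, Rpl22, Rpl35a, Rps19, Rps21 and Rps27l, counted among the 27, also have starts without one. In 8 members (16%) the base at one annotated start was itself a C followed by at least 4 more C or T bases: Rpl28, Rpl35, Rpl35a, Rpl38, Rps10, Rps21, Rps27 and Rps27rt. Over all genes that share was 3.01%. The letters CTTTCC were present on the gene's strand between 30 bases before and 50 bases after the start in 34% of members and 4.36% of all genes, and CTCTTTC in 18% and 1.28%. TTCCGG, which can overlap the end of CTTTCC, stood in 18% and 4.54%, and in 7.95% of the 7212 genes of the expression table with a start. A match is a description of letters in the reference, and the absence of a tract in Rpl4 says only that none begins in this window of this annotated start.

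Levels differed between members by more than an order of magnitude. Per kilobase of exon, the mean over the 41 libraries was highest for Rpl4 at 296 CPM per kb, Rps15 at 290, Rpl41 at 221, Rpl38 at 218 and Rps21 at 202. It was lowest for Rpl7l1 at 5.02 CPM per kb, Rpl37rt at 7.31, Rps19bp1 at 8.82, Rps19 at 11.8 and Rpl18 at 13.2. Thus 3 of the 5 lowest were a paralog, a copy and the binding protein. Rps19 and Rpl18 are core subunit proteins, and a single value per kb divides by all annotated exon bases, which may include isoforms that these cells do not use. No member was at 0 in any library, and all 64 passed the filter on low values. The exons of 16 members overlapped another annotated gene, in 14 cases on the opposite strand, and the use of strand is not given in the sources used here. Reads of Rpl5, Rpl18, Rpl28 and Rpl35 may therefore include reads of Fam69a, Sphk2, Ube2s and Wdr38, and Rpl36al shares 332 exon bases with Gm49383 on its own strand.

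Together the 64 genes took 4658 to 10056 CPM of a library, with a median of 7133, which was 1.18% of the reads in the table at the median. Their summed level was highest in ARC, where the lowest, median and highest of 9 libraries were 7375, 8403 and 10056 CPM. In PVN these values were 6450, 7313 and 8530 CPM, in DMH 5069, 6430 and 7321 CPM, and in VMH 4658, 5482 and 9010 CPM. Every ARC library was above every DMH library, whereas the ranges of ARC, PVN and VMH overlapped. In VMH the 3 libraries of batch 1 held 6796, 7398 and 9010 CPM, and the other 8 held 4658 to 5746 CPM. The highest VMH library was VMH-111, from a fed mouse. Without the 3 members of highest CPM (Rpl4, Rps3 and Rpl3), the share of the table at the median was 0.976%.

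**Figure D1:**
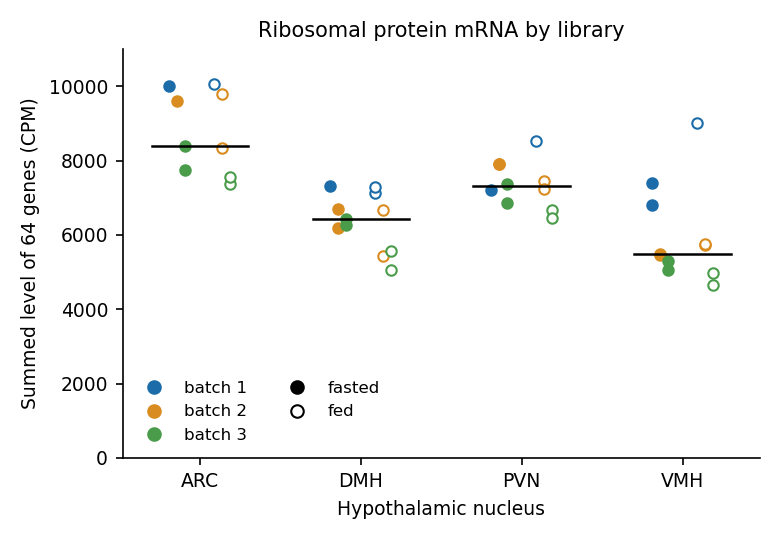
Summed CPM of the 64 genes (vertical axis) in each of the 41 libraries by hypothalamic nucleus (horizontal axis), 1 point a library, coloured by capture and library batch, filled for fasted and open for fed mice. The ARC libraries lie between 7375 and 10056 CPM, above all DMH libraries, and the VMH libraries of batch 1 lie above the other VMH libraries.

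The order of nuclei was also read within mice, since the nuclei came from the same animals. ARC was above VMH in 9 of 9 mice with both libraries, with a ratio of summed CPM of at least 1.12 and a median of 1.52. The lowest ratio was that of the mouse of VMH-111. ARC was above DMH in 9 of 9 mice (median ratio 1.41) and above PVN in 9 of 9 (median ratio 1.17). PVN was above VMH in 9 of 10 mice, DMH was above VMH in 8 of 10, and DMH was above PVN in 1 of 10. Gene by gene, 40 members were higher in ARC than in DMH in every mouse, 32 were higher in ARC than in VMH in every mouse, and 15 were higher in ARC than in PVN in every mouse. Of all 10127 genes, 2.95%, 5.54% and 3.41% were higher in ARC than in DMH, VMH and PVN in every mouse.

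In ARC, 55 of the 64 genes were higher than the mean of the other nuclei and none was lower (limma, Benjamini-Hochberg adjusted p under 0.1, over both feeding states). Of all 10121 genes tested, 9.73% were called higher in ARC and 11.7% lower. The called members were 34 of 38 large subunit genes, 17 of 18 small subunit genes and 4 of the 8 paralogs, copies and binding protein. All 64 log2 differences were above 0, with a median of 0.45, beside -0.00 over all genes. Within batches 1, 2 and 3 the median of the members was 0.41, 0.53 and 0.42.

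Rps27, a zinc-finger protein of the small subunit, had the largest difference in ARC. Its level was 75.3 CPM in the lowest, 121 in the median and 175 in the highest ARC library, 54.6, 74.1 and 104 CPM in DMH, 62.6, 87.7 and 129 CPM in PVN, and 34.6, 49.0 and 96.3 CPM in VMH. The ranges of ARC and of each other nucleus overlapped, but within mice Rps27 was higher in ARC than in VMH in 9 of 9. The log2 difference of ARC from the other nuclei was 0.77 (SE 0.09; limma adjusted p 1.59e-09), and within batches it was 0.79, 0.77 and 0.71. Rps27rt, its copy on another chromosome, followed at 0.72 (limma adjusted p 1.67e-07), and the large subunit gene Rpl37a stood at 0.58.

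Rpl4, a large subunit protein that lines the exit tunnel and had the highest level per kb, was at 658, 725 and 867 CPM in the lowest, median and highest ARC library. The other nuclei reached 437, 549 and 585 CPM in DMH, 596, 623 and 788 CPM in PVN, and 440, 516 and 583 CPM in VMH. No ARC library overlapped a DMH or VMH library, and the share of all genes that separate in this way was not counted. The log2 difference of Rpl4 was 0.40 (SE 0.05; limma adjusted p 5.89e-08) in ARC and -0.33 (SE 0.05; limma adjusted p 5.85e-07) in VMH.

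Of the 9 members that did not pass in ARC, 4 had the smallest differences. Rpsa, a small subunit protein that is also known as a laminin receptor, had a median of 86.5 CPM in ARC, and of 87.4 in VMH, 82.6 in DMH and 91.5 in PVN, and its log2 difference in ARC was 0.05 (SE 0.08; limma adjusted p 0.780). Rpl28 stood at 0.19 (SE 0.14) and Rpl35 at 0.15 (SE 0.11). Both are among the 16 members whose exons overlap another gene, and the part of such overlap was not tested. Rps19bp1 stood at 0.06 (SE 0.27). Rpsa, Rpl28 and Rpl35 are subunit proteins, whereas Rps19bp1 is not.

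In VMH, 46 of 64 genes were lower than in the other nuclei and none was higher, while 16.6% of all genes were called lower and 16.3% higher. They were 28 large subunit genes, 15 small subunit genes and 3 of the other 8. The median log2 difference was -0.34, beside a median near 0 over all genes, and 63 of 64 were below 0. Rps27 fell furthest below at -0.78 (SE 0.08; limma adjusted p 6.79e-11), then Rps27rt at -0.72, Rps12 at -0.60 (SE 0.10; limma adjusted p 1.55e-06) and Rpl13 at -0.60. Rps12, a small subunit protein, was at 33.0, 45.2 and 83.5 CPM in the lowest, median and highest VMH library and at 59.2, 87.4 and 119 CPM in ARC, with overlap only from the highest VMH libraries. Rpl28 at 0.02 and Rpsa at -0.00 did not pass. Within batches the median was -0.10, -0.42 and -0.41, so batch 1 had the smallest difference. Without the mouse of VMH-111 the count was 52 and the median -0.38.

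In DMH, 19 of 64 genes were lower and none was higher, beside 6.76% and 8.19% of all genes, and the median was -0.18. Rpl36al was lowest at -0.58 (SE 0.10; limma adjusted p 2.55e-05), followed by Rps2 at -0.40 (limma adjusted p 0.00266) and Rpl18 at -0.39 (limma adjusted p 0.0147). The 4 members above 0, Rps19bp1 at 0.21, Rpl7l1 at 0.09, Rps27l at 0.09 and Rpl28 at 0.06, did not pass.

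In PVN, 10 genes were higher and none was lower, while 10.4% of all genes were called higher and 11.6% lower, so the members' share was close to that background. The median was 0.07. Rpl36al led at 0.45 (SE 0.10; limma adjusted p 8.13e-04), then Rps12 at 0.27 (limma adjusted p 0.0466) and Rplp0 at 0.27 (limma adjusted p 0.0910). Rplp0 forms the base of the stalk that recruits elongation factors, and its values were 35.9, 56.6 and 71.1 CPM in PVN, 45.7, 53.5 and 64.4 CPM in ARC, 27.9, 41.5 and 60.3 CPM in DMH, and 26.3, 35.3 and 59.6 CPM in VMH. These ranges overlapped, with ARC and PVN at the higher end. Rps27l at -0.40, Rpl28 at -0.27 and Rpl7l1 at -0.17 had the lowest differences and did not pass. In batch 1 alone the median of the members in PVN was -0.10, against 0.15 in each of the other batches, and the count fell to 5 without the mouse of PVN-101 and to 6 without that of PVN-100, PVN-125 or PVN-308.

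**Figure D2:**
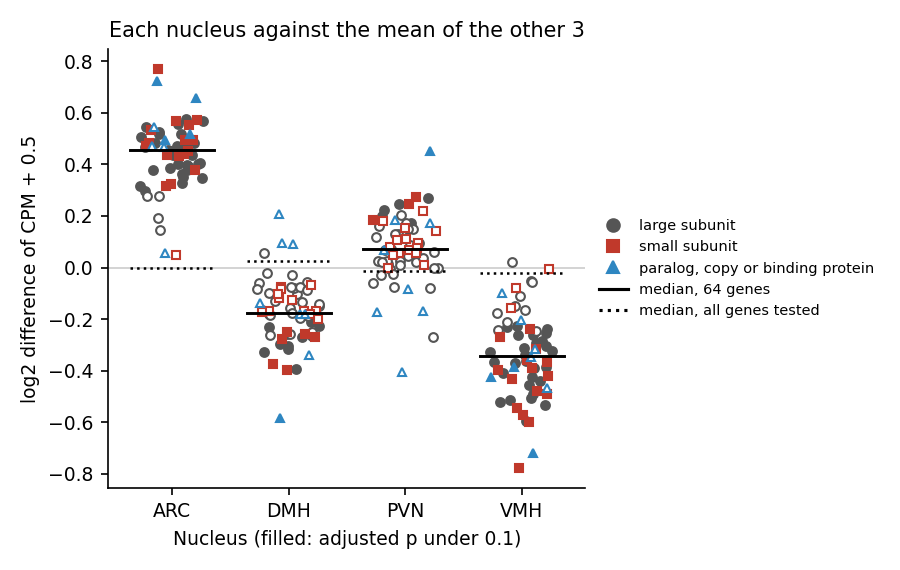
Log2 difference of CPM + 0.5 between each nucleus and the mean of the other nuclei (vertical axis) for the 64 genes, 1 point a gene, with colour and shape for large subunit, small subunit, and paralog, copy or binding protein, filled where limma gave an adjusted p under 0.1. Solid lines are medians of the 64 genes (0.45 in ARC, 0.07 in PVN, -0.18 in DMH and -0.34 in VMH) and dotted lines are medians of all genes tested, which lie near 0.

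Several members come with a close relative, and coding sequences show which pairs reads can tell apart. The coding sequences of Rps27 and Rps27rt are 255 bases long and 100% identical, so that all 206 windows of 50 bases are shared and their levels are uncertain. Both begin with the same bases.
Rps27 and Rps27rt, coding bases 1 to 30: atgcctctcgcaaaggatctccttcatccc
Rps27l is 76.1% identical to Rps27 and shares no such window. The next lines give coding bases 6 to 35, with capitals where the aligned bases differ.
Rps27: TctCgcAaAGgatctCCtTcaTccCtcTCC
Rps27l: CctGgcTaGAgatctGTtAcaCccTtcCTT
Rpl36a, on the X chromosome, and its autosomal paralog Rpl36al are 87.9% identical and share no window of 50 bases, as coding bases 151 to 180 show.
Rpl36a: cagacTaagccTatTttCcgCaaAaaggcT
Rpl36al: cagacAaagccAatCttTcgAaaGaaggcC
The transcript of Rpl37rt, annotated as a processed pseudogene, differs at 1 base from the coding sequence of Rpl37 (99.7% identity over that stretch), and 81.2% of the windows are shared. All were read from the annotated transcripts of GRCm38.

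The pair with identical coding sequence moved as one measure: over the 41 libraries the levels of Rps27 and Rps27rt had an r of 0.95, a description of points that share nuclei, batches and reads. Rps27l, the paralog with its own sequence, had an r of 0.29 with Rps27. Its values were 9.70, 17.2 and 25.4 CPM in the lowest, median and highest ARC library, and 5.09, 13.0 and 24.5 in DMH. In PVN they were 1.53, 10.7 and 20.1 CPM, and in VMH 4.65, 10.4 and 13.6 CPM. The 4 ranges overlapped. Rps27l passed in ARC at 0.66 (SE 0.26; limma adjusted p 0.0838), and this call was lost in 8 of the alternatives. Rpl37rt averaged 5.50 CPM beside 122 CPM for Rpl37.

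The medians of Rpl36al and Rpl36a ran in a different order over the nuclei. Rpl36al was at 52.6, 67.4 and 122 CPM in ARC, 19.7, 44.0 and 73.6 CPM in DMH, 53.1, 71.0 and 92.1 CPM in PVN, and 35.2, 44.7 and 77.1 CPM in VMH. It was lower in DMH than in PVN in 10 of 10 mice, with a median log2 difference of -0.76. It passed in all 4 nuclei, higher in ARC (0.52; limma adjusted p 2.31e-04) and PVN and lower in DMH and VMH (-0.39; limma adjusted p 0.00216). Because each nucleus was set against the mean of the others, the 4 differences of a gene balance each other and are not separate results. Rpl36a passed in ARC at 0.39 (limma adjusted p 0.00481) and not in DMH (-0.20), PVN (0.02) or VMH (-0.21). Whether the difference between nuclei itself differed between these 2 genes was not tested. Among the other paralogs, Rpl22l1 passed in ARC at 0.49 and in VMH at -0.42, whereas its relative Rpl22 stood at 0.28 and -0.11 without passing. Rpl7 passed in ARC at 0.39 and Rpl7l1, at 0.54, did not.

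**Figure D3:**
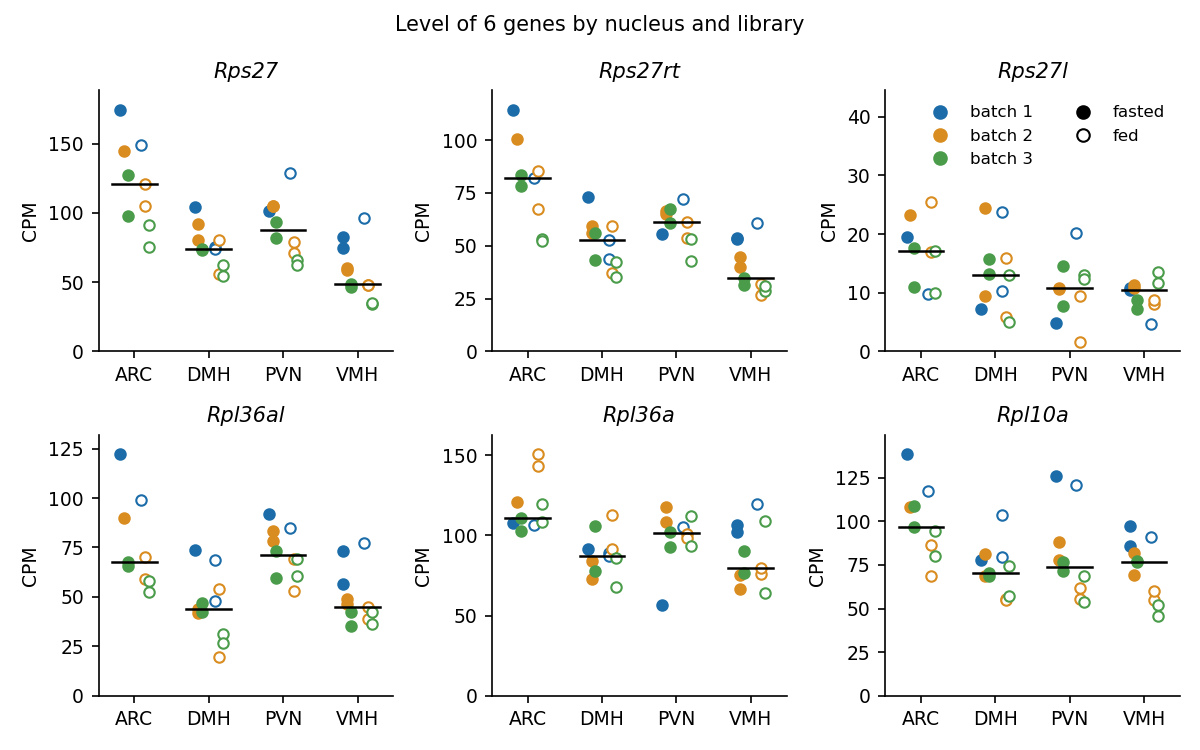
CPM of 6 named genes (vertical axes, linear and starting at 0) by nucleus (horizontal axes), 1 point a library, coloured by batch and filled for fasted mice, with lines at medians. Rps27 and Rps27rt show one pattern with the highest values in ARC, Rps27l overlaps between all nuclei, and Rpl36al has its lowest medians in DMH and VMH.

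The members varied together from library to library. The median r of the 2016 pairs over 41 libraries was 0.58, and 98.7% were positive, while over all pairs of genes the median was 0.001. After the means of nucleus and batch were removed it was 0.25, with 87.0% positive. Rpl11, Rps27 and Rps23 had the highest mean r with the other members (0.68 each). Rps19bp1 at 0.09, Rps27l at 0.19, Rpl7l1 at 0.31, Rpl28 at 0.37 and Rpl22l1 at 0.38 had the lowest. Of these 5 only Rpl28 is a core subunit gene. These correlations are descriptions over libraries that share mice, batches and scaling.

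Marker genes of other cell types also differed between nuclei. Of 7 neuron markers, Syt1 and Tubb3 were in the table, and their summed level was 672 to 868 CPM in VMH and 572 to 822 CPM in DMH, but 463 to 544 CPM in PVN and 436 to 550 CPM in ARC. Of 7 oligodendrocyte markers 6 were in the table, at 1120 to 1772 CPM in VMH and 452 to 1555 CPM in DMH, but 350 to 621 CPM in PVN and 243 to 758 CPM in ARC. By their medians both summed lists were highest in VMH and lowest in ARC, opposite to the ribosomal protein genes. The neuron markers differed from each other, since the median of Syt1 in ARC, DMH, PVN and VMH was 375, 630, 316 and 625 CPM, and that of Tubb3 was 95.2, 122, 178 and 149 CPM. Of 7 astrocyte markers 3 were in the table, with medians of 117, 181, 150 and 156 CPM in ARC, DMH, PVN and VMH, and 4 of 6 microglia markers had medians of 48.0 to 49.0 CPM in every nucleus. Across the 41 libraries the summed level of the 64 genes had an r of -0.72 with the neuron markers, -0.49 with the oligodendrocyte markers, -0.32 with the astrocyte markers, -0.08 with the vessel markers, 0.22 with the microglia markers, 0.21 with the ependymal and tanycyte markers and -0.21 with depth. The vessel markers Flt1, Kdr and Cldn5 had their highest medians in PVN, at 110, 17.6 and 11.4 CPM. In the other nuclei these medians were at most 65.4, 8.86 and 7.04 CPM. Of the ependymal and tanycyte list only Foxj1 was in the table, with medians of 1.84 to 3.09 CPM. The part of all these markers in the differences between nuclei was not tested.

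Fasting for 24 hours changed none of the 64 genes past the threshold within a nucleus. The share of all genes called was 0.367% in PVN, 0.176% in ARC, 0.0208% in VMH and 0.0103% in DMH (limma with batch as a covariate). Without adjustment, 9, 4, 2 and 3 members in ARC, DMH, PVN and VMH had a p under 0.05, beside 8.10, 6.62, 9.97 and 6.98% of all genes, and the lowest adjusted p of a member was 0.421, 0.695, 0.239 and 0.619. The median log2 difference of fasted from fed mice was 0.16 in DMH, 0.12 in ARC, 0.05 in PVN and -0.04 in VMH, beside medians of 0.02 or less in size over all genes. In DMH 55 of 64 differences were above 0, in ARC 49, in PVN 44 and in VMH 27. Within batches these medians ran from 0.03 to 0.19 in ARC and from 0.01 to 0.26 in DMH, whereas in PVN and VMH they ran from -0.25 and -0.36 in batch 1 to 0.15 in another batch.

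The member with the lowest adjusted p within a nucleus was Rpl7a, a large subunit protein, in PVN. Its values in the fasted PVN libraries ran from 100.6 to 121 CPM with a median of 110 CPM, and in the fed libraries from 70.2 to 87.6 CPM with a median of 82.6 CPM. The groups did not overlap, as for 0.703% of all genes, and Rpl7a was the 1 member with fasted above fed libraries in this way. The log2 difference was 0.47 without passing (limma adjusted p 0.239). In ARC the same gene ran from 105 to 132 CPM in fasted and from 91.7 to 149 CPM in fed mice, with overlap. Of the stalk, Rplp0 stood at -0.51 in VMH (limma adjusted p 0.619), where fasted libraries held 26.3 to 43.5 CPM and fed libraries 32.1 to 59.6 CPM.

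Among the other members with the highest and lowest fasting differences, none passed. In ARC, Rpl37rt stood at 0.60, Rps27rt at 0.52 and Rpl36 at 0.43, and Rps4l at -0.35, Rpl27a at -0.26 and Rps3 at -0.25. In DMH, Rps4l stood at 0.72, Rpl36al at 0.47 and Rpl27 at 0.47, and Rps19bp1 at -0.38, Rps7 at -0.17 and Rpl12 at -0.08. The sign of Rps4l, an annotated processed pseudogene related to the X-linked Rps4x, thus differed between ARC and DMH. In PVN, Rpl37 and Rps16 stood at 0.33 each, and Rps4l at -0.51, Rps19bp1 at -0.40 and Rpl7l1 at -0.22. In VMH, Rpl7l1 stood at 0.44 and Rpl10a at 0.39, and Rps19bp1 at -0.52 and Rpl35a at -0.46. Paralogs, copies and the binding protein made up many of these extremes, and most of them are low in level.

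When the 4 nuclei were averaged in a fit over all 41 libraries, 3 members passed, all higher in fasted mice: Rps27 at 0.33 (SE 0.07; limma adjusted p 0.00643), Rpl10a at 0.30 (SE 0.07; limma adjusted p 0.0166) and Rps27rt at 0.33 (SE 0.08; limma adjusted p 0.0216). Of all genes tested 3.18% were called, 1.52% as higher. The count of 3 of 64 stands on 2 independent measures at most, since Rps27 and Rps27rt cannot be told apart by their coding sequence. Without adjustment 17 members had a limma p under 0.05, all higher, and 13.2% of all genes did in either direction. The median over the members was 0.08, beside 0.01 over all genes. Of the 64 differences 46 were above 0, beside 52.3% of all genes. The fit estimated almost no correlation between libraries of a mouse and so counted them nearly as independent. With 1 value per mouse (6 fasted and 6 fed mice) no member passed, and limma gave Rps27 0.37 (adjusted p 0.170), Rpl10a 0.25 (adjusted p 0.451) and Rps27rt 0.37 (adjusted p 0.241). No member passed without batch as a covariate either. Without mouse 100 the count was 1, without mouse 86 it was 14, without the mouse of VMH-111 it was 12, and without batch 1 it was 15.

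Rps27 in single libraries shows what this rests on. In ARC the fasted libraries held 98.2, 127.2, 145 and 175 CPM and the fed libraries 75.3, 91.4, 105, 121 and 149 CPM. In DMH the fasted libraries held 73.2, 74.1, 80.6, 92.3 and 104 CPM, and the lowest, median and highest of the 6 fed libraries were 54.6, 67.9 and 80.4 CPM. The fasted values tended to the upper end in both nuclei, with overlap. In PVN the fasted libraries held 82.1, 93.4, 102, 105 and 105 CPM and the fed libraries 62.6, 66.2, 70.9, 79.3 and 129 CPM, where only PVN-111 lay above the lowest fasted one. In VMH the 6 fasted libraries ran from 46.4 to 83.0 CPM with a median of 59.9 CPM, and the fed libraries held 34.6, 35.0, 47.7, 48.3 and 96.3 CPM, the last from VMH-111, of the same mouse.

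As 1 value per mouse on the log2 scale, adjusted for nucleus, Rps27 was at 6.59 and 6.52 in the fasted and 6.17 and 6.20 in the fed mice of batch 2, and at 6.19 and 6.35 in the fasted and 5.85 and 5.86 in the fed mice of batch 3. In these batches fasted and fed mice did not overlap, but Rps27 was named because it passed on these same values. How many of all genes separate in this way was not counted. In batch 1 the fasted mice stood at 6.98 and 6.77 and the fed mice at 6.32 and 6.77, the latter that of the mouse of VMH-111. The values of 6.98 and 6.32 rest on 1 library each.

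Rpl10a, a large subunit protein at the L1 stalk, was at 96.7 to 139 CPM in fasted and 68.4 to 118 CPM in fed ARC libraries, and at 68.4 to 81.3 CPM in fasted and 54.7 to 104 CPM in fed DMH libraries. In PVN it was at 71.4 to 126 CPM in fasted and 53.8 to 121 CPM in fed libraries, and in VMH at 69.4 to 97.4 and 45.7 to 91.3 CPM. Fasted medians were higher in all 4 nuclei and the ranges overlapped in each. A difference in the fasting response between nuclei was found for 0 of 64 members (limma F-test; 0% of all genes called), with 3 members, and 517 of 10121 genes, at an unadjusted p under 0.05.

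**Figure D4:**
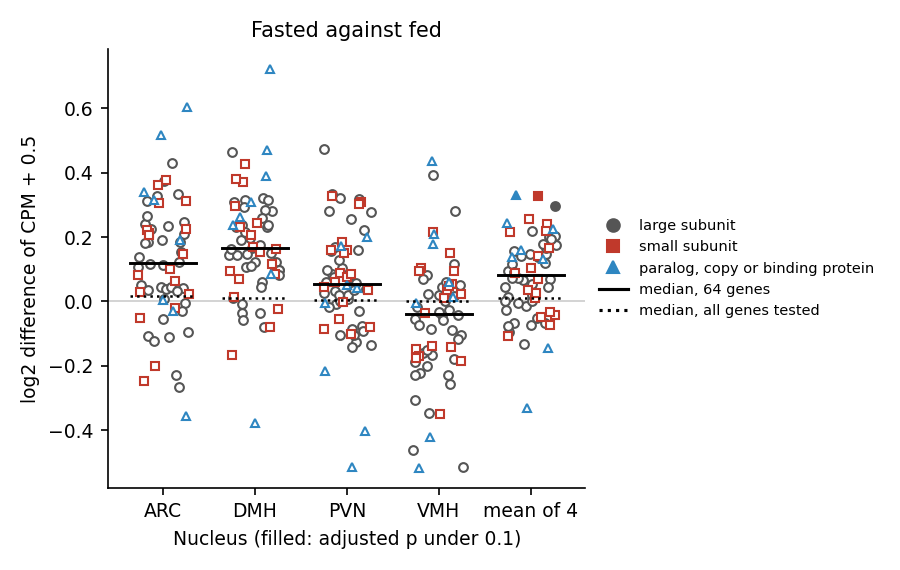
Log2 difference of CPM + 0.5 between fasted and fed mice (vertical axis) for the 64 genes within each nucleus and averaged over nuclei, 1 point a gene, with colour and shape by subunit and filled points past the threshold. Solid lines are medians of the 64 genes, from -0.04 in VMH to 0.16 in DMH, and dotted lines are medians of all genes tested.

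Members with and without a pyrimidine tract near the start were set side by side. In ARC the median log2 difference was 0.44 in the 27 with a tract and 0.48 in the 23 without, and in VMH it was -0.26 and -0.39. The mean fasting difference had a median of 0.11 and 0.09. The ranges of the groups overlapped in each comparison, and Rps27 with a tract and Rpl4 without one were both higher in ARC.

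Other genes of translation were counted from lists that do not use the ribosomal protein symbols. Fau, a gene of the list of ribosomal proteins under other names and the precursor of the small subunit protein eS30, was higher in ARC at 0.40 (limma adjusted p 0.00602) and lower in VMH at -0.27 (limma adjusted p 0.0381), the directions of most members. Of a list of 38 genes, for translation factors or of TOP mRNAs for other proteins, 22 were in the table. Of these, 11 were higher in ARC and none lower (9.73% and 11.7% of all genes). In VMH 10 were lower and 2 higher (16.6% and 16.3% of all genes). Eef1a1, which brings aminoacyl-tRNA to the ribosome, was higher in ARC at 0.55 (limma adjusted p 9.57e-15), as were Tpt1 at 0.54, the initiation factor Eif4b at 0.42 and the translocase Eef2 at 0.30. In VMH, Tpt1 stood at -0.62 and Eef2 at -0.52, whereas Eif4h at 0.32 and Eif5a at 0.27 were higher.

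Of 47 factors of ribosome assembly, 22 were in the table, and 2 were higher in ARC: Mdn1, an ATPase that remodels the precursor of the large subunit, at 0.17, and Polr1d, a subunit of RNA polymerases I and III, at 0.37. In VMH 3 were lower, among them the nucleolar methyltransferase Fbl at -0.76 and Mybbp1a at -0.48. Of all genes 9.73% were called higher in ARC and 16.6% lower in VMH, so these counts are near or below that background. Of 28 genes of nutrient signalling to translation, 11 were in the table, of which none was higher and 1 lower in ARC, 1 higher and 3 lower in VMH, and 5 higher and none lower in PVN. The shares of all genes called higher and lower were 9.73% and 11.7% in ARC, 16.3% and 16.6% in VMH, and 10.4% and 11.6% in PVN. Mtor itself, the kinase that controls translation of TOP mRNAs, ran opposite to the members, at -0.39 in ARC (limma adjusted p 3.07e-04) and 0.57 in VMH (limma adjusted p 2.89e-08). Its activator Rheb was lower in VMH at -0.24 and higher in PVN at 0.35. All 42 mitochondrial ribosomal proteins listed were in the table, and in ARC 1 was lower and none higher, with a median of 0.02, while in VMH 5 were higher and 3 lower, beside 16.3% and 16.6% of all genes. A test of the cytosolic against the mitochondrial genes was not made.

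No gene of these lists passed in a fasting comparison within a nucleus. In the mean over nuclei, Eif4b at 0.19 (limma adjusted p 0.0761), the assembly factor Gnl2 at 0.28 (limma adjusted p 0.0904) and Eef2k, the kinase that inhibits Eef2, at 0.50 (limma adjusted p 0.0624) were higher in fasted mice. Mdn1 at -0.19 (limma adjusted p 0.0216), Rrp1 at -0.20 (limma adjusted p 0.0679) and the mitochondrial Mrpl42 at -0.39 (limma adjusted p 0.0455) were lower. With 1 value per mouse none of these 6 passed, and their lowest adjusted p from limma was 0.246. The log2 differences were then 0.27 for Eif4b, 0.21 for Gnl2, 0.45 for Eef2k, -0.20 for Mdn1, -0.10 for Rrp1 and -0.32 for Mrpl42.

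The members also differed between the capture and library batches. By the F-test of limma, 41 of 64 genes differed between batches, beside 31.7% of all genes, and all 41 were lower in batches 2 and 3 than in batch 1. Of all genes 14.2% were called and lower in both. The median log2 difference from batch 1 was -0.25 in batch 2 and -0.40 in batch 3, while over all genes both medians were 0.02. With 1 value per mouse 38 members passed. Each batch held fasted and fed mice and libraries of every nucleus, and batch was a term of each main fit.

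Rps21, a small subunit protein, had the largest difference of batch 3 from batch 1, at -1.25 on the log2 scale. Its lowest, median and highest values were 209, 238 and 362 CPM in batch 1, 110, 144 and 221 CPM in batch 2, and 63.6, 116.3 and 181 CPM in batch 3 (limma adjusted p 1.18e-14). Rps15, also of the small subunit, was at 204, 281 and 387 CPM in batch 1, 94.6, 158 and 230 CPM in batch 2, and 69.7, 135 and 196 CPM in batch 3 (limma adjusted p 5.59e-13). No library of batch 3 overlapped batch 1 in either gene, and the share of all genes without such overlap was not counted. Rps27l at 0.08 (limma adjusted p 0.978) and Rpl12 at -0.12 (limma adjusted p 0.707) in batch 3 against batch 1 did not pass. Across the 64 genes the difference of batch 3 from batch 1 had an r of -0.59 with the GC content of the coding sequence and 0.24 with its length. For Rpl37rt and Rps4l the transcript of the processed pseudogene was used in place of a coding sequence. The ARC difference had an r of -0.27 with GC content and the VMH difference 0.12. These are descriptions over genes, which are not independent replicates, and the part of base composition in the batch difference was not tested.

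**Figure D5:**
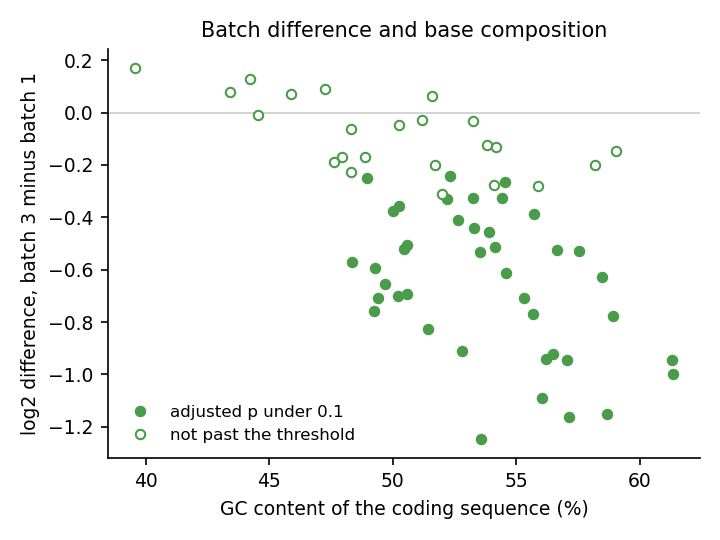
Log2 difference of batch 3 from batch 1 (vertical axis) against the GC content of the coding sequence in percent (horizontal axis), 1 point for each of the 64 genes, filled where the batch test of limma gave an adjusted p under 0.1. For Rpl37rt and Rps4l the transcript of the processed pseudogene was used in place of a coding sequence. Genes of higher GC content tend to lie lower, with an r of -0.59.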

How the data were processed

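RNA of each laser-captured nucleus was extracted, amplified (Ovation RNA-Seq V2), made into libraries with the Encore Rapid kit and sequenced. The submitters' processing notes name CASAVA 1.7, TopHat2 2.0.11, Cufflinks 2.2.1, edgeR, limma and GRCm38, and the authors left out outlier libraries, which can lower the spread between replicates. The counting program and use of strand are not given in the sources used here. The authors deposited CPM per Ensembl gene. A range of identifiers with 6725 annotated genes, 21 of them fitting the rule for members, was not in the table, so libraries summed to 554896 to 689010 CPM. Of its columns, 2 could not be matched to a sample and were left out, and 41 of 43 samples were analysed. Those 2 columns were named as ARC of mice 85 and 92, whereas the 2 samples without a column were labelled PVN of these mice. Which nucleus they held was not settled. Depth was read from low values, of which 97.8 to 98.7% were whole multiples of a step within 0.1. Precision covers counting error and the spread between libraries, and reads of amplified RNA are not independent molecules.

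Symbols, exons and coding sequences came from the GENCODE annotation of GRCm38. limma 3.58.1 in R 4.3.3 was fitted to log2(CPM + 0.5) with a variance trend, over all genes that reached 1 CPM in a number of libraries equal to the smaller group, so changes of low genes are understated. Fasted and fed mice were compared within each nucleus with batch as a covariate. Nuclei, the mean fasting effect, its difference between nuclei and batch were tested in 1 fit of 41 libraries with mouse as a random block, since nuclei with the same number came from the same animal. The estimated correlation within mice was -0.003. After the means of nucleus, feeding state and batch were removed, the mean r of libraries of a mouse ran from -0.09 to -0.02. It was -0.053 over all such pairs, beside -0.065 for libraries of different nuclei from other mice of the same batch. P values were 2-sided and adjusted by Benjamini-Hochberg over all genes, with a threshold of 0.1. The fits were tested on simulated data. Named genes were members past the threshold in a fasting comparison, the 3 highest and 3 lowest differences of each comparison, the 5 highest and 5 lowest levels per kb, paralogs, stalk genes, and list genes past the threshold under fasting. Other genes named here were chosen after their values were seen. Some results that this rule would name are not reported here. Members, lists and tests were chosen with earlier results of these data known. Alternatives were other pseudocounts, filters, scalings, covariates, weights and blocks, leaving out each mouse, and, added after the data were seen, 1 value per mouse and leaving out batch 1. Python 3.11.15, pandas 2.3.3 and Biopython 1.88 were used.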

Additional observations from a re-analysis of the deposited data

Results flagged for a closer look

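In groups of 4 to 6 libraries of 1 nucleus and feeding state, 200 sets of values were examined and 19 held a library that lay far from the others by Dixon's criterion. Chance gives about 1 in 20. Of the 19, 9 came from VMH-111, the VMH library of a fed mouse. In it the summed level of the 64 genes was 9010 CPM, where the next VMH fed library had 5746 CPM, Rps27 was at 96.3 CPM, Rps27rt at 60.8, Rpl27 at 123, Rpl36al at 77.1, Rpl7a at 113, Rpl18 at 71.0, Rpl28 at 77.9 and Rps12 at 83.5 CPM. Its VMH marker Fezf1 was at 192 CPM, beside a median of 230 CPM in the nucleus. PVN-111, of the same mouse, stood highest in its group for Rps27 (129 CPM), Rpl10a (121 CPM) and Rpl18 (105 CPM).

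Of the other sets, 4 came from the mouse of DMH-86 and ARC-86. Among fasted DMH libraries, DMH-86 was highest for Rps4l (29.4 CPM) and Rpl36al (73.6 CPM) and Rpl28 (85.3 CPM), and DMH-101 for Rpl37rt (7.63 CPM). Rpl37rt was lowest among fasted ARC libraries in ARC-86 (7.30 CPM), Rps4l was highest among fed PVN libraries in PVN-125 (29.7 CPM), and Rpl18 was highest among fasted VMH libraries in VMH-85 (72.0 CPM). All but DMH-101 and PVN-125 belonged to batch 1.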

How the results depend on the processing

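Counts of members past the threshold in ARC, DMH and VMH stayed within 1.5 times under every alternative run, and leaving out each mouse gave 49 to 55, 15 to 21 and 43 to 52. The PVN count of 10 became 6 without the batch covariate, 16 with library weights and 5 to 15 when mice were left out. The mean fasting count of 3 became 0 without the batch covariate, 0 with 1 value per mouse, 14 with library weights, 15 without batch 1 and 1 to 14 when mice were left out. The batch count of 41 was 21 between batches 2 and 3 alone and 33 to 45 when mice were left out. The cause was not tested. Fasting within nuclei and its difference between nuclei gave 0 throughout. Without the replicate block the counts were 55 in ARC, 19 in DMH, 10 in PVN, 46 in VMH, 3 for mean fasting and 40 for batch, and with mouse as a fixed block 56, 19, 12 and 48 in the nuclei, so pairing changed no count by over 1.5 times. No mouse was in both feeding states, so fasting has no pairing. The tract count of 27 was 8 where the start base itself had to be the C. Reversed signs were seen only in differences that did not pass. Leaving out mice gave fasting differences of -0.178 to 0.15 for Rpl12 in DMH and -0.43 to 0.17 for Rpl7l1 in PVN. Against the other nuclei it gave -0.016 to 0.219 for Rpl7l1 in DMH, -0.027 to 0.239 for Rps27l in DMH, -0.284 to 0.087 for Rpl7l1 in PVN and -0.038 to 0.059 for Rpl28 in VMH. Rps19bp1 in DMH was -0.0044 with library weights, Rps27l in DMH -0.017 with the fixed block, and Rpl28 in VMH -0.023 scaled by table total and -0.024 without batch 1. Depth limits Rps27l, Rpl7l1, Rpl37rt, Rps4l and Rps19bp1, which rest on few reads.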
